A study of Mus musculus with 6 samples.

Results

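Genes that encode fibronectin, the tenascins, the fasciclin proteins and the thrombospondins were followed in RNA-seq counts from mouse palatal shelves. They were Fn1, Tnc, Tnn, Tnxb, Postn, Tgfbi, Thbs1, Thbs2 and Thbs3, chosen by symbol, and all 9 were among the 23366 gene symbols of each count file. The shelves came from E14.25 embryos, 3 libraries labelled WT (replicates 2, 3 and 4) and 3 labelled Kmt2dfl/fl Wnt1-Cre, called KO here (replicates 1, 2 and 3). The WT label names no floxed allele or Cre. Wnt1-Cre is active in the neural crest lineage, from which most palatal mesenchyme descends. The epithelium, endothelium, skeletal muscle and blood cells of a KO shelf therefore lie largely outside its reach. The labels describe the libraries of a group as biological replicates, and whether a library held 1 embryo or several is not given in the sources used here.

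Fibronectin is a secreted glycoprotein that cells assemble into fibrils through integrins, and these fibrils carry other matrix proteins. Tenascins, periostin, TGFBI and the thrombospondins are matricellular proteins, secreted proteins that act less as structural support than as modulators of adhesion, growth factor release and collagen assembly. Periostin and TGFBI share fasciclin domains. In the shelf, such proteins are made mainly by mesenchyme, and several are known targets of TGF-beta signalling.

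Of the 9 members, 8 were expressed highly enough to be tested, and Tnxb was not. None of the 8 tested members passed an adjusted p of 0.05 in edgeR's quasi-likelihood test over 14233 genes, a threshold that 0.534% of all genes passed (0.436% lower and 0.0984% higher in KO). At an unadjusted p under 0.05, 3 members stood lower (Tgfbi, Tnn and Thbs2) and 1 higher (Fn1), against 6.69% and 7.51% of all genes. By other tests, DESeq2 called 2 members lower (Tgfbi and Tnn) where it called 2.28% of all genes lower, and limma voom called 0. Without KO replicate 2, a library that stood apart, 1 member passed, lower (Tgfbi), against 1.57% of all genes. A fit with the replicate number as a block called 3 lower (Tgfbi, Tnn and Thbs2), against 1.37% of all genes, although the numbers were not found to pair the libraries. In that fit WT replicate 4 and KO replicate 1 had no partner, so the group difference rested on the libraries numbered 2 and 3. The mean level in KO was 1.86-fold lower for Tgfbi, 2.13-fold for Tnn and 1.91-fold for Thbs2 on the fitted scale, and the fitted fold of Fn1 was 1.36.

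The letters upstream of 5 members are shown because Tgfbi, Tnn, Thbs2 and Thbs3 were the tested members with the lowest log2 fold changes and Postn was the most abundant. Promoters of 7 of the 9 members were in the RefSeq table for build GRCm38.p6. Of each window of 250 bases before the annotated start, bases that overlap an annotated exon were left out, so that 187 bases are printed for Tgfbi and 245 for Tnn. The stretches are chr13:56609336-56609522 on the plus strand for Tgfbi, chr1:160153581-160153825 on the minus strand for Tnn, chr17:14694263-14694512 on the minus strand for Thbs2, chr3:89214930-89215179 on the plus strand for Thbs3 and chr3:54360857-54361106 on the plus strand for Postn, at the second of its 2 listed starts. Capitals mark matches, on either strand, to the motif TATAAA of TATA boxes, the motif CCAAT bound by NF-Y, the motif GGGCGG of GC boxes, or the AP-1 consensus TGANTCA.
Tgfbi: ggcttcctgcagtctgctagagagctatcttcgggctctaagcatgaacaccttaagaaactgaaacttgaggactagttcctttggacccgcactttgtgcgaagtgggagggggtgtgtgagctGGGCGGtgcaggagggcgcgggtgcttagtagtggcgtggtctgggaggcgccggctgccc
Tnn: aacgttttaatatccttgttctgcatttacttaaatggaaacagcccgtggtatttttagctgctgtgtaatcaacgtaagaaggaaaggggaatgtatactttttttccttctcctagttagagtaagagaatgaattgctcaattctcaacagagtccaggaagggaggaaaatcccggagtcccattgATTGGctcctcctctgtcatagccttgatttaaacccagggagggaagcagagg
Thbs2: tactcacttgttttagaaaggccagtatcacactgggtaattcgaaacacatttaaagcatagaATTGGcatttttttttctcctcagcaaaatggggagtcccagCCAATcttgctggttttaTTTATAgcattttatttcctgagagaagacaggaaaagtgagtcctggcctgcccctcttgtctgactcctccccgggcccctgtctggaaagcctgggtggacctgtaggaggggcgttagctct
Thbs3: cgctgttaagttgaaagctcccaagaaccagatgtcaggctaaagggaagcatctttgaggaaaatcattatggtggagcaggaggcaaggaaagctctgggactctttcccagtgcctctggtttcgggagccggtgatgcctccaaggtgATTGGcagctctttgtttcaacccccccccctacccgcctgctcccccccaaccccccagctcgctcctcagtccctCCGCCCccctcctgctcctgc
Postn: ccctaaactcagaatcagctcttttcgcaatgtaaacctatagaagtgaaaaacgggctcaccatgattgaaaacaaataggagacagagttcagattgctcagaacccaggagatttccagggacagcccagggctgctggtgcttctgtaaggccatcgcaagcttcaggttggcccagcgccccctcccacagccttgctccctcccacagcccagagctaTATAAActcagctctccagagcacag
CCAAT letters began 59 bases upstream of the start in Tnn, 98 bases upstream in Thbs3, and 144 and 186 bases upstream in Thbs2, and the windows of Tgfbi, Postn, Tnc and Tnxb held none. Of all 32851 promoter windows of 250 bases, 33.8% held a CCAAT match. A TATAAA match began 26 bases upstream of the printed Postn start, and 12.4% of all windows held one somewhere. Tnc and Thbs2 also held TATAAA letters, in each case 126 bases upstream of a start. GGGCGG occurred in Tgfbi, Thbs3 and Tnc and in 32.7% of all windows. TGANTCA occurred in Tnxb and in 6.75% of all windows. None of the 4 motifs was held by all of Tgfbi, Tnn, Thbs2 and Thbs3. Of the 250 bases, G and C made up 62.4% in Tgfbi and 42% in Tnn, against a median of 52.4% over all windows. Such matches describe letters and do not show binding.

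Read pairs assigned to genes ranged from 12721979 to 24916079 per library. KO replicate 2 stood apart. In it 47.5% of listed pairs fell outside genes, against 12.3% to 18.1% in the other 5, and its count of Ttn, the giant sarcomere protein titin, came to 10160 CPM against 66.3 to 191 CPM elsewhere. Ttn made up most of its sum of 8 skeletal muscle markers (11262 CPM, against 242 to 571 CPM), in which Myog was at 27.5 CPM against 20.1 to 31.4 CPM elsewhere. CPM denotes gene counts divided by the TMM-normalised size of the library and scaled up to a common total. The targeted gene, listed as Mll2, stood at 193 ± 20.6 CPM in WT and 329 ± 184 CPM in KO (SD, n = 3 each). Its log2 fold change was 0.77 with all 6 libraries (SE 0.35, edgeR adjusted p = 0.368). Without KO replicate 2 the log2 fold change was 0.21. A count over the whole gene does not check the deletion. Mesenchyme markers were present in every library, among them the palate factor Osr2 at 46.2 to 73.2 CPM. Rn45s, a ribosomal RNA feature, took 16.2% to 20.7% of gene counts in WT and 18.6% to 35.1% in KO.

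**Figure D1:**
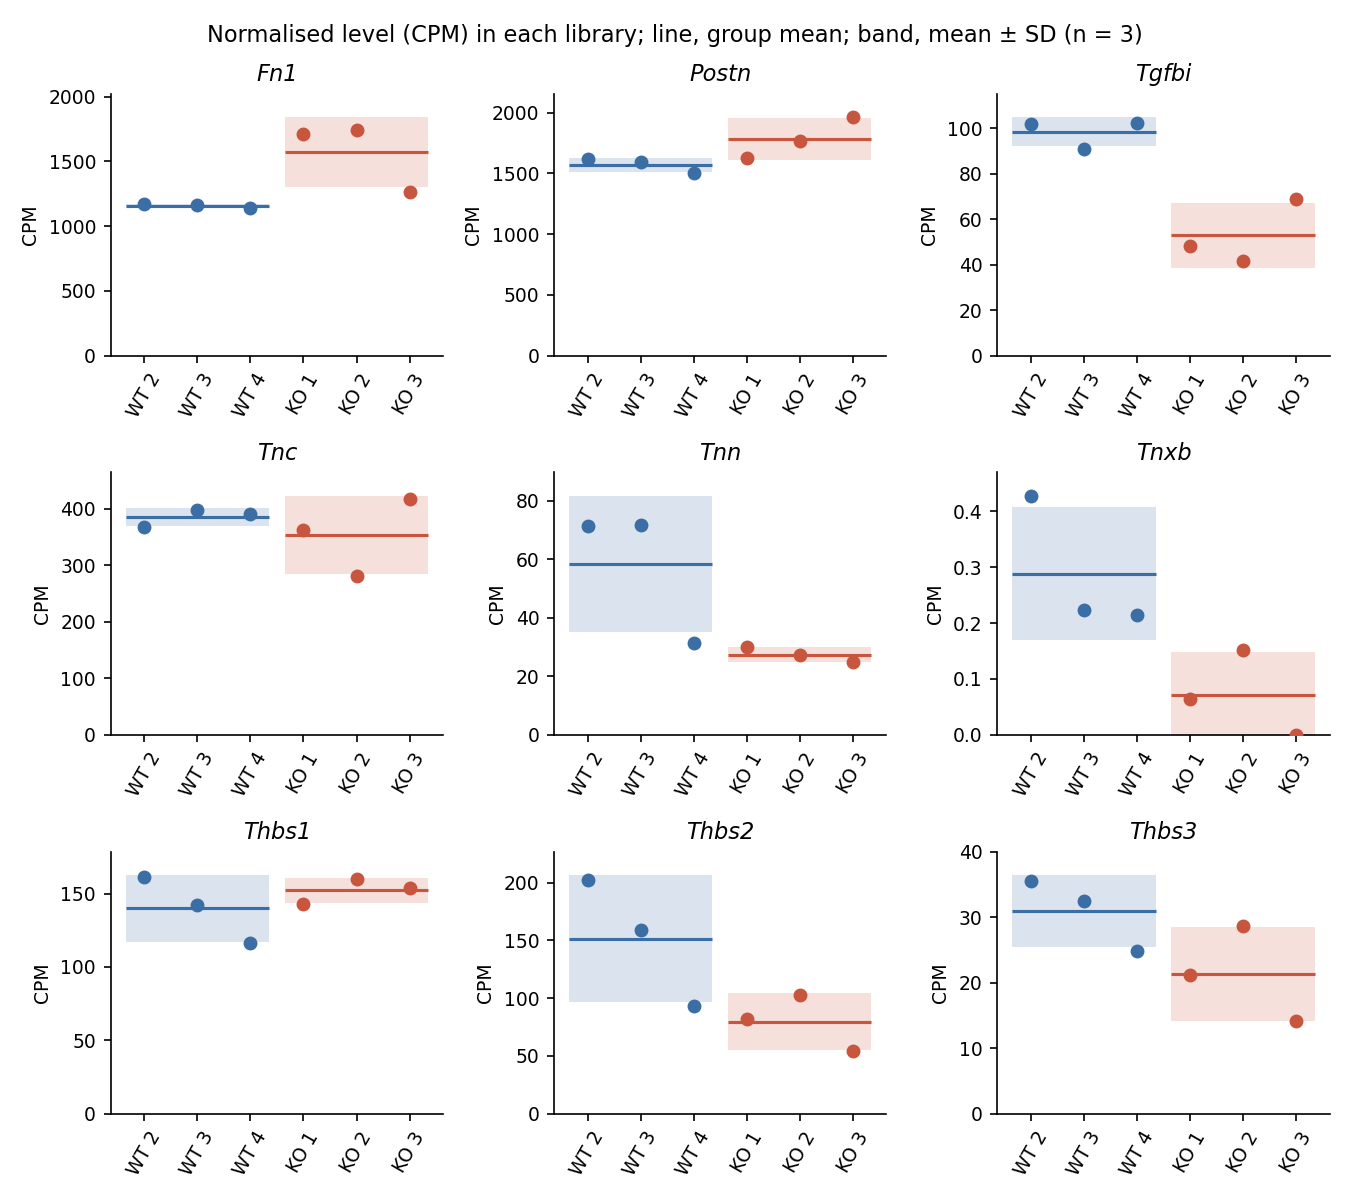
Normalised level in CPM (vertical axes, from 0) of the 9 members in each of the 6 libraries, with the group mean as a line and mean ± SD as a band (n = 3). Tgfbi, Tnn and the barely detected Tnxb have all 3 KO libraries below all 3 WT libraries, Fn1 and Postn have all 3 above, and Tnc, Thbs1, Thbs2 and Thbs3 overlap.

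Levels per exon length placed the members over a wide range. These values are CPM per kb of annotated exon, with exon lengths from 3771 bases for Tgfbi to 12209 bases for Tnxb in GENCODE M21. Postn stood highest at 181 ± 6.68 CPM per kb in WT (SD, n = 3), rank 115 of 14103 tested genes with a length, and rank 89 in KO. Fn1 followed at 99.1 ± 1.13 CPM per kb (rank 229) and Tnc at 49.6 ± 2.07 CPM per kb (rank 541). Tgfbi at 26.1 ± 1.69, Thbs1 at 23.0 ± 3.71 and Thbs2 at 21.6 ± 7.83 CPM per kb in WT were neighbours whose libraries overlapped. In KO, Thbs1 at 25.1 ± 1.40 CPM per kb stood above Tgfbi at 14 ± 3.74 and Thbs2 at 11.4 ± 3.50 CPM per kb, with no overlap of libraries. Tnn at 10.01 ± 4.001 and Thbs3 at 6.41 ± 1.13 CPM per kb overlapped in WT, and Tnxb lay far below at 0.0237 ± 0.00982 CPM per kb. Gene counts do not separate splice forms, which are many for fibronectin and tenascin-C, and the union of exons can overstate a transcript's length.

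**Figure D2:**
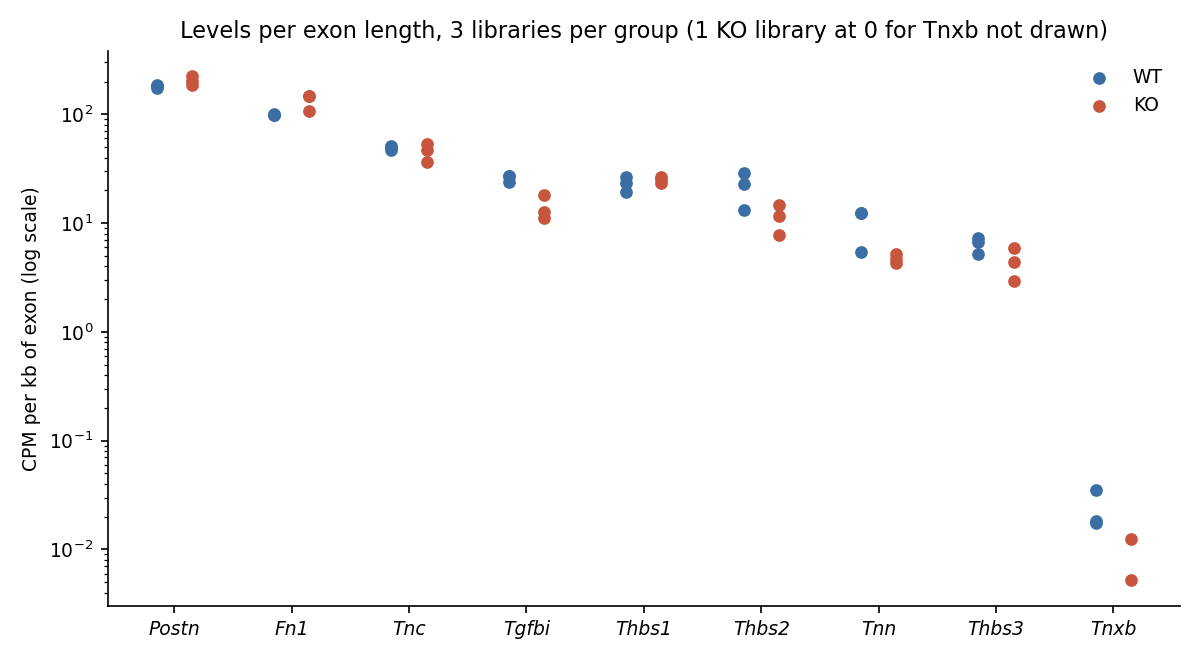
Level per kb of annotated exon (vertical axis, log scale, CPM per kb) of the 9 members, with 1 point per library and 3 libraries per group. The value of 0 for Tnxb in KO replicate 3 is not drawn on this scale. Postn and Fn1 lie highest in both groups, Tnxb lies lowest, and Thbs1 keeps its level in KO where Tgfbi and Thbs2 lie lower.

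The fasciclin gene Tgfbi had the smallest p of the members. Its protein binds collagens and integrins and takes its name from induction by TGF-beta. Tgfbi stood at 102, 90.97 and 102 CPM in WT replicates 2, 3 and 4 and at 48.1, 41.6 and 68.7 CPM in KO replicates 1, 2 and 3. Each KO library lay below each WT library, with the gap smallest for KO replicate 3. The means of 98.3 ± 6.38 and 52.8 ± 14.1 CPM (SD, n = 3 each) gave a log2 fold change of -0.90 (SE 0.18, 95% interval -1.33 to -0.46, edgeR adjusted p = 0.117). Without KO replicate 2 the log2 fold change was -0.76 and Tgfbi was the 1 member that passed (edgeR adjusted p = 0.0409), in a fit that called 2.12% of all genes. Over the 6 fits that left out 1 library, its log2 fold change ran from -1.13 to -0.76 and its adjusted p from 0.0409 to 0.44.

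Cell type markers moved beside Tgfbi. Macrophages are a known source of Tgfbi, and their 8 markers in the files summed to 65.3 to 72.2 CPM in WT and 41.2 to 49.2 CPM in KO. Of these, 5 of the 8 had all 3 KO libraries below all 3 WT libraries, against 11.2% of all genes tested. The macrophage marker with the smallest p was Mrc1, at 24.9 ± 2.47 CPM in WT and 12.1 ± 2.16 CPM in KO (SD, n = 3 each; edgeR adjusted p = 0.0528). Cd68 was the 1 of the 8 with a log2 fold change above 0 (0.85). It stood at 2.74 ± 0.168 CPM in WT and 5.03 ± 2.98 CPM in KO (SD, n = 3 each; edgeR adjusted p = 0.381). The 9 endothelial markers summed to 297 to 325 CPM in WT and 232 to 272 CPM in KO, and the 10 epithelial markers to 589 to 730 and 317 to 565 CPM. All 3 KO libraries lay below all 3 WT libraries for 6 of the 9 endothelial and 7 of the 10 epithelial markers, and above for 0. The separation was thus not particular to the macrophage markers. None of these markers was at 0 in all libraries. Their part in the lower Tgfbi values was not tested, and in bulk tissue fewer cells of a type and less RNA per cell cannot be told apart.

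Periostin, encoded by Postn, links tenascin-C, fibronectin and collagen and assists the proteinase BMP1 in activating lysyl oxidase. Unlike its fasciclin relative Tgfbi, Postn was not lower in any KO library than in WT. It stood at 1615, 1597 and 1507 CPM in WT replicates 2, 3 and 4 and at 1625, 1764 and 1962 CPM in KO replicates 1, 2 and 3. All 3 KO libraries lay above all 3 WT libraries, KO replicate 1 by a small margin. The log2 fold change was 0.18 (SE 0.12, 95% interval -0.11 to 0.47, edgeR adjusted p = 0.51).

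Fn1 was the member with the highest log2 fold change. It stood at 1168, 1162 and 1143 CPM in WT replicates 2, 3 and 4, a spread of 1.14% (coefficient of variation). In KO replicates 1, 2 and 3 it stood at 1713, 1741 and 1264 CPM, a spread of 17.03%. All KO libraries were higher than all WT libraries, and KO replicate 3 lay nearer to WT than to the other KO libraries. The log2 fold change was 0.44 (SE 0.15, 95% interval 0.090 to 0.79, edgeR adjusted p = 0.292), and 0.35 without KO replicate 2. Such complete separation occurred in 2 of 8 tested members above (Fn1 and Postn) and 2 of 8 below (Tgfbi and Tnn), against 12.3% and 11.2% of all genes tested. Together the 9 members summed to 3595 ± 165 CPM in WT and 4043 ± 95.3 CPM in KO (SD, n = 3 each). As a share of all gene counts, with no TMM factor, they overlapped, at 0.36% to 0.42% in WT and 0.34% to 0.43% in KO. All gene counts here include Rn45s, which took 16.2% to 20.7% of them in WT and 18.6% to 35.1% in KO. Postn and Fn1 made up 76.0% ± 1.54 of the members' summed CPM in WT and 83.0% ± 1.53 in KO.

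Tenascin-C, encoded by Tnc, is an anti-adhesive protein of developing mesenchyme, and it stood at 367, 398 and 391 CPM in WT replicates 2, 3 and 4. In KO replicates 1, 2 and 3 it stood at 362, 280 and 417 CPM, so KO lay on both sides of WT. Its log2 fold change of -0.12 (SE 0.15, 95% interval -0.49 to 0.24, edgeR adjusted p = 0.717) became 0.0070 without KO replicate 2, the library with the lowest value.

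Tenascin-W, encoded by Tnn, is made in developing bone, periosteum and other stem cell niches. Tnn stood at 71.5, 71.8 and 31.3 CPM in WT replicates 2, 3 and 4 and at 30.1, 27.2 and 24.97 CPM in KO replicates 1, 2 and 3. The KO libraries were close together and lay below WT, but WT replicate 4 was far nearer to KO than to the other WT libraries. The spread in WT was 39.98%, against 9.31% in KO. The log2 fold change was -1.09 (SE 0.30, 95% interval -1.78 to -0.39, edgeR adjusted p = 0.217). It was -1.39 without WT replicate 4 (edgeR adjusted p = 0.0746) and between -1.16 and -0.91 without any other single library.

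Tenascin-X, encoded by Tnxb, belongs to mature connective tissue such as skin and tendon and was close to the limit of detection. It had 12, 5 and 5 counts in WT replicates 2, 3 and 4 and 1, 2 and 0 counts in KO replicates 1, 2 and 3. The 0 allows up to 0.166 CPM in that library, on the basis of 3 counts and for counting error only. Summed over libraries, 22 WT counts against 3 KO counts gave a depth-adjusted ratio of 4.69, with a 95% exact counting interval of 1.41 to 24.5. That interval covers counting error and not the spread between libraries, and the filter on low counts kept Tnxb out of the test.

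Thrombospondin 1 binds CD36 and CD47 and can release TGF-beta from its latent complex. Thbs1 stood at 161, 142 and 116 CPM in WT replicates 2, 3 and 4 and at 143, 160 and 154 CPM in KO replicates 1, 2 and 3, with KO inside the range of WT. The log2 fold change was 0.12 (SE 0.14, 95% interval -0.19 to 0.44, edgeR adjusted p = 0.683). That interval leaves out a fall of the size measured for Thbs2.

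Thrombospondin 2 is an anti-angiogenic relative that shapes collagen fibrils in skin, tendon and bone. Thbs2 stood at 202, 159 and 93.2 CPM in WT replicates 2, 3 and 4 and at 81.6, 103 and 54.1 CPM in KO replicates 1, 2 and 3. KO replicate 2 lay above WT replicate 4, so the groups overlapped. The log2 fold change was -0.93 (SE 0.32, 95% interval -1.67 to -0.19, edgeR adjusted p = 0.292). It ran from -1.19 without WT replicate 4 to -0.67 without WT replicate 2.

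Thrombospondin 3, a pentameric form found in cartilage and bone, had the lowest level of the 3 thrombospondin members. Thbs3 stood at 35.5, 32.4 and 24.8 CPM in WT replicates 2, 3 and 4 and at 21.2, 28.6 and 14.1 CPM in KO replicates 1, 2 and 3, again with an overlap at KO replicate 2. The log2 fold change was -0.54 (SE 0.26, 95% interval -1.14 to 0.062, edgeR adjusted p = 0.382), and -0.82 without KO replicate 2 (edgeR adjusted p = 0.123). Its exons overlap those of Mtx1, on the opposite strand, over 6.59% of their length. Mtx1 itself stood at 18.6 ± 2.24 and 18.3 ± 1.92 CPM (SD, n = 3 each; log2 fold change -0.021).

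**Figure D3:**
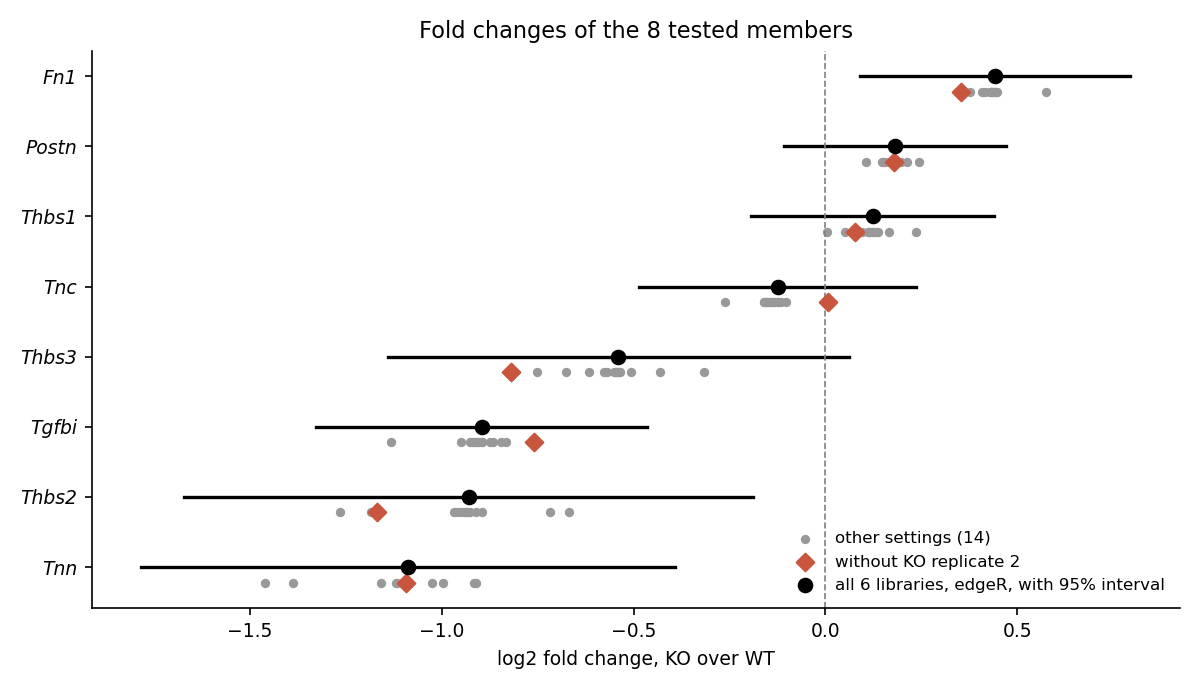
Log2 fold change, KO over WT (horizontal axis), of the 8 tested members with all 6 libraries (black, line for the 95% interval), without KO replicate 2 (diamonds) and under 14 other settings (grey). Tnn, Thbs2, Tgfbi and Thbs3 stay below 0 and Fn1, Postn and Thbs1 above it in each setting drawn, while Tnc lies on both sides.

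Thbs2 and Thbs3 varied within each group in 1 order, with WT replicate 2 above 3 above 4 and KO replicate 2 above 1 above 3. The summed osteoblast markers, 10 genes in the files, followed the same order, at 310, 252 and 139 CPM in WT replicates 2, 3 and 4 and 263, 370 and 154 CPM in KO replicates 1, 2 and 3. Within that list Bglap2 was at 0 in every library and Sp7, the osteoblast transcription factor, stood at 34.7, 30.02 and 9.86 CPM in WT and 25.4, 49.3 and 5.86 CPM in KO. The osteoblast sums of the groups overlapped. Runx2, which is also made by other mesenchyme, was the largest part of the sum in every library, at 137, 130.2 and 79.9 CPM in WT and 181, 190.3 and 119.6 CPM in KO. Alpl, the alkaline phosphatase, stood at 91.4, 67.0 and 38.9 CPM in WT and 48.1, 45.5 and 13.3 CPM in KO, so the markers did not move as one. Chondrocyte markers summed to 386 to 1317 CPM in WT and 207 to 402 CPM in KO, and tendon markers to 174 to 235 and 163 to 186 CPM. The palate mesenchyme markers summed to 5445 to 6927 CPM in WT and 4215 to 4824 CPM in KO, a sum in which Col1a1 is included. Col1a1 alone stood at 1686 to 2899 CPM in WT and 588 to 796 CPM in KO. Of the 8 palate mesenchyme markers, 4 had a log2 fold change above 0 and 4 below, with a median of 0.018. Sums of platelet markers were 3.63 to 6.80 and 5.19 to 5.37 CPM, of erythroid markers 496 to 943 and 244 to 1308 CPM (with Hba-a1 at 0 throughout), of glial markers 76.95 to 84.5 and 64.6 to 81.6 CPM and of neuronal markers 128 to 203 and 72.8 to 249 CPM. Their part in the lower thrombospondin values was not tested, and the shared order was noticed after the values were seen.

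**Figure D4:**
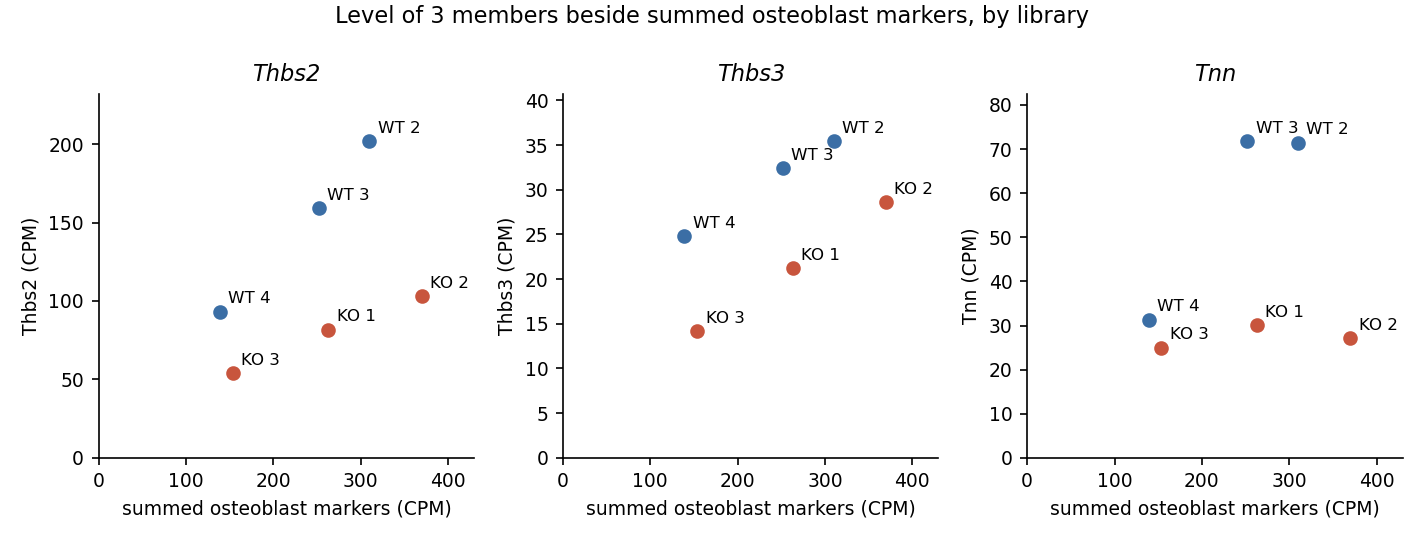
Level of Thbs2, Thbs3 and Tnn (vertical axes, CPM) beside the summed osteoblast markers (horizontal axes, CPM), with 1 labelled point per library. For Thbs2 and Thbs3 the points of each group ascend together, with KO replicate 2 above WT replicate 4, while Tnn lies between 24.97 and 31.3 CPM in WT replicate 4 and all KO libraries.

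The members whose centred values differed least over the 6 libraries were Postn and Thbs1. The measure was the root mean square difference of log2 levels, each centred on its own gene's mean, and it was 0.13 for this pair. Postn and Tnc differed by 0.23, Thbs2 and Thbs3 by 0.25, Fn1 and Thbs1 by 0.25, Fn1 and Postn by 0.26 and Thbs2 and Tnn by 0.27, whereas Fn1 and Tnn differed by 0.81. Among 13423 other genes with at least 1 CPM, the closest to Tgfbi was Ntn1, the guidance molecule netrin 1, at 0.094. Ntn1 stood at 75.2 ± 3.26 CPM in WT and 40.2 ± 9.24 CPM in KO (SD, n = 3 each), followed in likeness by Emilin2, an elastic fibre glycoprotein, at 0.12 and Exph5 at 0.12. The closest to Tnn were Foxj1, a transcription factor of motile cilia, at 0.15, Exoc3l4 at 0.16 and Fgl2 at 0.19. Their means in WT and KO were low, at 2.27 and 0.662 CPM for Foxj1, 4.53 and 1.66 CPM for Exoc3l4 and 1.95 and 0.917 CPM for Fgl2. At such levels the 0.5 CPM added before taking log2 narrows differences. The fitted log2 fold change of Foxj1 was -1.78, against -1.09 for Tnn. The closest to Fn1 were Wdr60, at 0.016, Krba1 and Tert. None of these 9 genes passed the threshold (edgeR adjusted p from 0.0846 for Ntn1 to 0.369 for Fgl2). The distances are a description over 6 libraries, and genes that vary little lie close by this measure whether or not they vary together.

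Matricellular relatives of the members had 1 gene past the threshold. Sparc encodes osteonectin, which binds collagen, and at 475 ± 31.8 CPM in WT and 238 ± 17.96 CPM in KO (SD, n = 3 each) it had fallen by 0.998 on the log2 scale (SE 0.11, edgeR adjusted p = 0.0212). Sparc passed without KO replicate 2 (edgeR adjusted p = 0.000528) and in none of the fits that left out another library (0.0602 to 0.166). Of 26 relatives tested, 0 rose and 1 fell (0.0984% and 0.436% of all genes), and 21 had a log2 fold change below 0, against 48.5% of all genes tested. DESeq2 called 5 of the 26, where it called 3.41% of all genes in either direction, and 3 passed without KO replicate 2 (2.12% of all genes). Their median was -0.40, against -0.33 for the 8 members and 0.011 for all genes.

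Partners in the matrix also had 1 gene past the threshold, Col1a1, the main chain of type I collagen, which periostin and thrombospondin 2 are known to bind. It fell from 2236 ± 614 to 709 ± 108 CPM (SD, n = 3 each; edgeR adjusted p = 0.0376) but passed in none of the 6 fits that left out 1 library (0.0796 to 0.19). Of 28 partners, 0 rose and 1 fell (0.0984% and 0.436% of all genes). Of the 28, 24 were below 0, against 48.5% of all genes tested, and the median was -0.30. DESeq2 called 7 of the 28 (3.41% of all genes), and 5 passed without KO replicate 2 (2.12% of all genes).

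The receptors of these proteins had no gene past the threshold. Of 23 integrins, syndecans and other receptors tested, edgeR called 0, DESeq2 2 and limma voom 0, and 5 had an unadjusted p under 0.05 (1 higher and 4 lower). Over all genes, 3.41% were called by DESeq2 and 7.51% were higher and 6.69% lower at that unadjusted p. The smallest p was that of Itgb3, an integrin chain that binds fibronectin, thrombospondins and periostin, at 7.17 ± 1.95 CPM in WT and 3.59 ± 0.607 CPM in KO (SD, n = 3 each; edgeR adjusted p = 0.204). The median over the receptors was -0.11, with 15 of 23 below 0, against 48.5% of all genes tested. Itga5 and Itgb1, the chains of the main fibronectin receptor, had log2 fold changes of -0.24 and -0.20 (edgeR adjusted p = 0.348 and 0.417) and are named after their values were seen.

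Downstream of these receptors, Myl9, a myosin light chain of contractile cells, fell from 53.7 ± 1.80 to 29.4 ± 1.06 CPM (SD, n = 3 each; edgeR adjusted p = 0.0203). Myl9 passed without KO replicate 2 (edgeR adjusted p = 0.00141) and in none of the other fits that left out 1 library (0.0613 to 0.184). Of 23 adhesion signalling genes tested, 0 rose and 1 fell, Myl9 (0.0984% and 0.436% of all genes). Of the 23, 17 were below 0, against 48.5% of all genes tested, and the median was -0.060. The 8 pericyte and smooth muscle markers summed to 408 to 481 CPM in WT and 333 to 382 CPM in KO, with none at 0, and their part in the Myl9 value was not tested.

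On the TGF-beta axis, which thrombospondin 1 feeds and Tgfbi answers, edgeR and limma voom called 0 of 16 genes and DESeq2 1. Of the 16, 3 had an unadjusted p under 0.05, all lower. Over all genes, edgeR called 0.534% and DESeq2 3.41%, and 6.69% were lower and 7.51% higher at that unadjusted p. The smallest p was that of Lrrc32, a protein that anchors latent TGF-beta at the cell surface, at 37.2 ± 5.55 CPM in WT and 13.7 ± 6.85 CPM in KO (SD, n = 3 each; edgeR adjusted p = 0.178, and 0.0277 without KO replicate 2). The median was -0.15, with 9 of 16 below 0, against 48.5% of all genes tested. Of 20 mesenchymal transcription factors, edgeR and limma voom called 0 and DESeq2 2. Of the 20, 5 had an unadjusted p under 0.05 (2 higher and 3 lower), to be read against the same shares of all genes. The smallest p was that of Scx, the tendon factor (edgeR adjusted p = 0.0528, and 0.00962 without KO replicate 2), and the median of 0.14 was -0.013 without KO replicate 2.

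**Figure D5:**
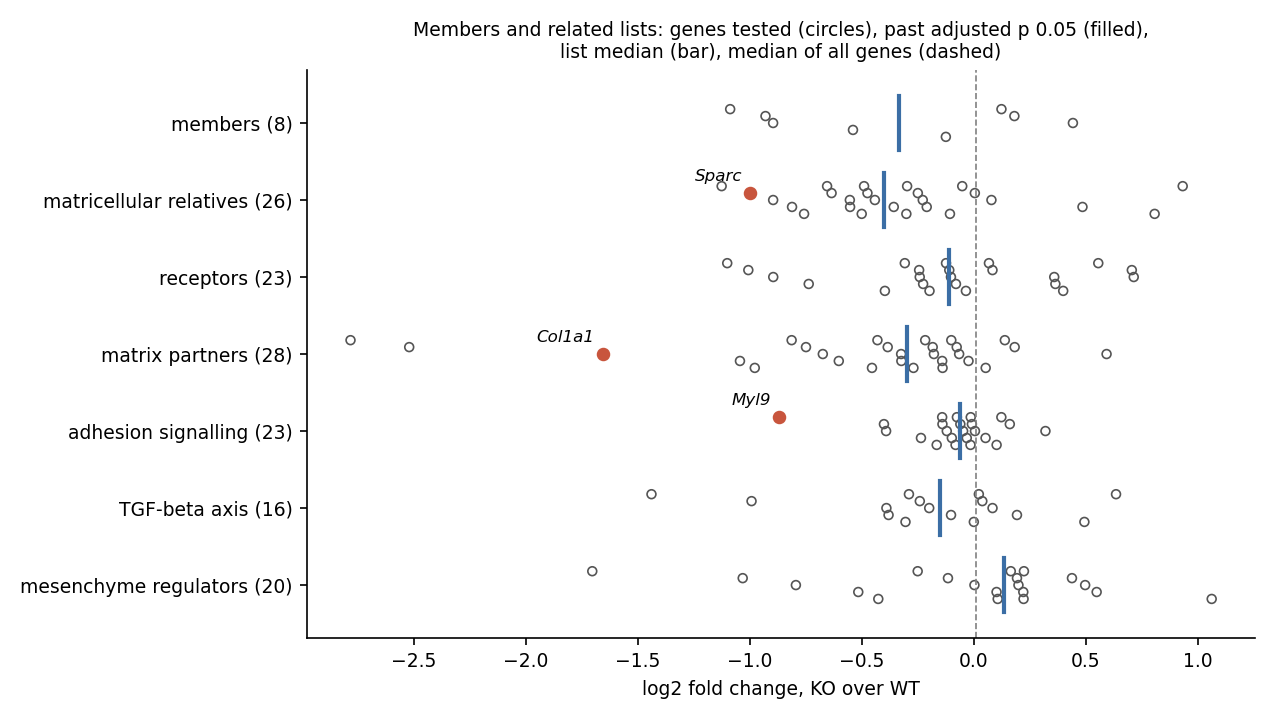
Log2 fold change, KO over WT (horizontal axis), of the tested genes of the members and 6 related lists, with numbers of genes in parentheses. Filled points passed an adjusted p of 0.05, namely Sparc, Col1a1 and Myl9, bars are list medians and the dashed line is the median of all 14233 genes.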

How the data were processed

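Each library has 1 deposited file of counts, whole numbers that the authors obtained per gene symbol and did not normalise. Libraries were made with a stranded mRNA kit per the labels' protocols, and the submitters' processing notes list TopHat2, SAMtools, HTSeq and mm9 with no version. The sources used here do not name the annotation or the strand setting, so opposite-strand overlaps (at most 6.59% of a member's exons) could share counts. The 5 category lines were left out of library sizes and tests.

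Counts were normalised by TMM, filtered by filterByExpr and compared, KO against WT with no covariate, by edgeR's robust quasi-likelihood test (edgeR 4.0.16, R 4.3.3), with Benjamini-Hochberg adjustment over 14233 genes. Standard errors and 95% intervals of log2 fold changes come from that fit and are not adjusted for the number of genes. The log2 levels compared for likeness were log2(CPM + 0.5). The test was tried on simulated data first. Same-group libraries differed beyond sampling noise (chi-square per degree of freedom 11.01 to 153). Exon lengths and overlaps came from GENCODE M21 (GRCm38) and promoters from RefSeq (GRCm38.p6), used for lengths and letters and not joined to mm9 coordinates.

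The members, 7 context lists, 13 marker lists and tests were chosen with earlier results of these data known. All members and Kmt2d were named, with up to 4 genes past the threshold per context list (or the 1 of smallest p) and the 3 genes most like each of the 3 members of smallest p. The context list of genes that overlap or adjoin Tnxb and Thbs3 is not reported here. Genes named beyond this rule were chosen after their values were seen. Alternatives were other size factors and filters, DESeq2 1.42.0, limma voom (limma 3.58.1), leaving out each library, a replicate block, leaving out Rn45s and Lars2 and, added later, the earlier edgeR quasi-likelihood method.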

Additional observations from a re-analysis of the deposited data

How the results depend on the processing

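None of the 8 tested members passed with all 6 libraries, under other size factors, other filters, limma voom, the earlier edgeR method or without Rn45s and Lars2. With DESeq2, 2 members passed, both lower (Tgfbi, adjusted p = 0.000847, and Tnn, 0.0185), and 0 to 1 passed with single libraries left out (Tgfbi without KO replicate 2). The count of all genes past the threshold was 76 (62 lower, 14 higher), and 486 with DESeq2 (325 lower, 161 higher). With limma voom 9 genes were higher. With single libraries left out the count ran from 0 (without WT replicate 2 or 3, where 1102 and 1117 had unadjusted p-values below 0.05) to 306 (without KO replicate 2), with 0 to 227 lower and 0 to 79 higher. Only replicate numbers 2 and 3 occur in both groups. Deviations from the group means correlated across genes at 0.24 between the libraries numbered 2 and at -0.15 between those numbered 3, so the numbers were not taken as pairs. With the replicate block 298 genes passed (195 lower, 103 higher), 64 of them among the 76, with 4 matricellular relatives and 3 matrix partners. In that fit 3 members passed, all lower (edgeR adjusted p = 0.0349 for Tgfbi, 4.23e-06 for Tnn and 0.000129 for Thbs2). WT replicate 4 and KO replicate 1 had no partner of their number there, so the group difference rested on the libraries numbered 2 and 3 alone. WT replicate 4, so left aside, held the lowest WT values of Tnn and Thbs2. These were 31.3 and 93.2 CPM, against 71.5 to 71.8 and 159 to 202 CPM in WT replicates 2 and 3. Of the members, Tnc changed sign under 1 alternative (0.0070 without KO replicate 2, in a range from -0.26 to 0.0070 with single libraries left out), and the other 7 kept their sign in all 15. The cause of these differences was not tested. Counting error at the lowest count was at most 6.25% for the tested members (Thbs3), so the spread between libraries limited most of these comparisons.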

Other observations

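Within the SPARC family, which was read as part of the matricellular relatives, values went both ways. Spock1, a secreted proteoglycan of that family, stood at 12.7 ± 3.70 CPM in WT and 24.2 ± 3.63 CPM in KO (SD, n = 3 each), a log2 fold change of 0.93 (edgeR adjusted p = 0.176). Its relative Spock3 stood at 7.28 ± 0.847 and 12.8 ± 2.55 CPM, a log2 fold change of 0.81 (edgeR adjusted p = 0.177). Sparcl1, which is closest to Sparc, stood at 64.4 ± 2.97 and 50.3 ± 2.91 CPM, a log2 fold change of -0.36 (edgeR adjusted p = 0.217). Vcan, the hyaluronan-binding proteoglycan versican, which also binds fibronectin and tenascins, stood at 1471 ± 145 and 2218 ± 190 CPM, a log2 fold change of 0.59 (edgeR adjusted p = 0.153). It had the highest log2 fold change of the 28 matrix partners, a list in which 24 genes were below 0. None of these 4 genes passed the threshold, and they are named after their values were seen.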
